A study of Mus musculus with 6 samples.

Results

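The 40 genes described here encode the machinery that copies DNA and the factors that carry cells into S phase. They were chosen by name, from helicase subunits to nucleotide enzymes, and all 40 were found among the 18872 genes of the deposited table. RNA was sequenced from mouse embryonic fibroblasts (MEFs), primary cultures grown from minced trunks of E14.5 embryos and harvested at 75% confluency, in 6 libraries on a B6 background. By the labels 3 libraries are SARAF KO and 3 are wild type, called KO-labelled and WT-labelled libraries below. According to the methods, SARAF-KO animals are SARAF fl/fl mice carrying Cre recombinase under the ubiquitous PGK promoter, which removes the floxed exon 3 of Saraf in the whole body, and their SARAF-WT littermates are homozygous for the same floxed allele without Cre. SARAF is a protein of the endoplasmic reticulum that switches off store-operated calcium entry, and the comparison asks whether its loss alters transcription in these cells. The sources do not say whether the libraries of a group came from separate embryos, so p-values measure the spread between libraries, which may be technical.

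Copying of the genome is prepared in G1, when the origin recognition complex, Cdc6 and Cdt1 load the ring-shaped MCM2-7 helicase onto DNA, and geminin later blocks Cdt1 so that no origin is used again in the same cycle. At the start of S phase Cdc45 and the GINS complex join MCM2-7 to form the active helicase, polymerase alpha with its primase starts each strand, the clamp loader RFC places the sliding clamp PCNA, and polymerases delta and epsilon extend the strands while RPA covers single-stranded DNA. E2F transcription factors switch on many of these genes as cells leave G1, and fibroblasts that stop dividing lose their RNA, so the set is widely used as a measure of proliferation.

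Stretches before the transcription start of 6 of the genes are shown because E2F factors are known to act through such regions, and because the genes went different ways in the comparison. RefSeq windows of GRCm38.p6, from 250 bases before to 50 bases after a start site, were matched by symbol for 32 of the 40 genes, and Mcm4, Gmnn, Gins1, Gins2, Gins4, Rfc2, Pole and Ccne2 were not matched. Each window was searched on both strands for the E2F words TTTCCCGC, TTTCGCGC, TTTGCCGC and TTTGGCGC, with overlapping matches counted as 1 site. The printed lines give the 170 bases that end just before the start site, 5′ to 3′ on the strand of the gene, with E2F words in capitals.
Mcm6, chr1:128359706-128359875, minus strand: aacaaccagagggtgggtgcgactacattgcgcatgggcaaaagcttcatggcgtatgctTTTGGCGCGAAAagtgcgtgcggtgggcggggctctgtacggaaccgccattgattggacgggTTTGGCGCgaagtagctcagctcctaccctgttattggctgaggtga
Mcm5, chr8:75109339-75109508, plus strand: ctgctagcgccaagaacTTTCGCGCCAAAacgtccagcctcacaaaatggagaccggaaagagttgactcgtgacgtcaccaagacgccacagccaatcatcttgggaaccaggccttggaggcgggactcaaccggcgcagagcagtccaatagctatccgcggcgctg
Pola1, chrX:93632156-93632325, minus strand: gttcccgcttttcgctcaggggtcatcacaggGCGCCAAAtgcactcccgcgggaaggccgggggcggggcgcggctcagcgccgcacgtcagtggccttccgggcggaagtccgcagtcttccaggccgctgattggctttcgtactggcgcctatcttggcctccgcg
Pola2, chr19:5964207-5964376, minus strand: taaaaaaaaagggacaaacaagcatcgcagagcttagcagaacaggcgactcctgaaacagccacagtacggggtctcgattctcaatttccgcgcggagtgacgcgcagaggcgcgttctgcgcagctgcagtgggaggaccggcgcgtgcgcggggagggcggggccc
Fen1, chr19:10204394-10204563, minus strand: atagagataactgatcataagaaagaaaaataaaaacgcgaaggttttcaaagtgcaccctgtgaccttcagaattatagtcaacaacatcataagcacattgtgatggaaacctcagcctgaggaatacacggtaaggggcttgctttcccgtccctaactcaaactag
Tyms, chr5:30073626-30073795, minus strand: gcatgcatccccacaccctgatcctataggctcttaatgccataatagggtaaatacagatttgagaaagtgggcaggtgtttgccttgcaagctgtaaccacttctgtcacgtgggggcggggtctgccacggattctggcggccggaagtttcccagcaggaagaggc
The first 3 stretches hold an E2F word, with 2 sites in Mcm6, and no such word is seen in those printed for Pola2, Fen1 and Tyms. In the comparison that follows Mcm6 and Pola2 were lower, Fen1 and Tyms higher, and Mcm5 and Pola1 not called. These genes were chosen with their outcomes known, so the mix says nothing about the word. Calls over all 32 windows are given with E2f1 below. A match is a run of letters and not a measured binding site. Some windows, among them those of Fen1, Mcm5, Mcm7, Cdc6 and E2f1, do not contain the gene start of the GENCODE M21 annotation. For Fen1 the window spans 10204344 to 10204643 and that start lies at 10204169. In such genes the bases around that start were not fully searched. Of the 32 windows 11 (34.4%) held at least 1 E2F site, in Mcm3, Mcm5, Mcm6, Mcm7, Orc1, Cdc6, Cdt1, Gins3, Rfc3, Pola1 and Pold1, against 626 of 27025 windows of all genes (2.32%) and 3.44% of the windows of genes in the deposited table. In 1 of the 11 genes an E2F word overlapped a match to one of the other motifs searched. The CCAAT box, the word CCAAT on either strand, was found in 20 of 32 windows (62.5%) against 37.9% of all windows and 38.1% of those of genes in the table, and the CHR words TTTGAA and TTCGAA, associated with late cell-cycle genes, in 6 (18.8%) against 19.4% and 14.7%.

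Reads had been counted per gene and divided by the size factor of each library, which gives the normalized counts used here. The reads behind them could be recovered, and they totalled 32799080 to 37979662 in the KO-labelled libraries and 24595137 to 32228588 in the WT-labelled ones. Saraf, the targeted gene, had 4631, 4476 and 4384 normalized counts in the KO-labelled libraries and 3268, 3409 and 3306 in the WT-labelled ones. The log2 change was 0.43 (limma adjusted p = 4.2e-12), so Saraf RNA was higher under the KO label in every library. An exact permutation test, two-sided, gave p = 0.1, and 3 against 3 libraries allow none smaller. The Saraf count covers all exons, of which exon 3 makes up 400 of 1860 bases (21.5%) of the main transcript, and reads of that exon alone were not analysed here. Since this count cannot show whether exon 3 was removed, every direction below is stated by the label of the libraries and not by a known genotype. Of 10 fibroblast markers all were detected, and by the calling rule given below 2 were higher and 7 lower in the KO-labelled libraries. Over all genes tested 28.2% were higher and 28.0% lower. The summed normalized count of the fibroblast markers was 332323 to 338376 against 406938 to 411809. Of 5 mesothelial markers 4 were in the table and 3 were tested, all higher, with sums of 4864 to 5292 against 1648 to 1721, mostly Msln. Of 6 macrophage and blood markers 5 were in the table and summed to 504 to 525 against 436 to 459, with Ptprc, the defining blood marker, at 0 in 5 of 6 libraries. Of the 3 tested, Cd53 (2.71-fold, limma adjusted p = 3.0e-08) and Csf1r (1.74-fold, limma adjusted p = 0.014) were higher in the KO-labelled libraries and Cd68 was not called. Of 5 endothelial markers 4 were in the table and summed to 1256 to 1355 against 2086 to 2123, mostly Kdr. Of the 2 tested, Kdr was lower (0.59-fold) and Tek higher (1.67-fold, limma adjusted p = 0.00028). The epithelial list summed to 4.25 to 17.1 over the 6 libraries, skeletal muscle to 27.6 to 37.7, neural crest to 100 to 131 and liver to 154 to 237, and the part of other cell types in the replication results was not tested.

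Replication genes differed little between the groups. In bulk RNA a change in the number of cells in S phase and a change in RNA per cell cannot be told apart. All 40 exceeded the minimum mean of 10 normalized counts for testing, and every member had at least 496 reads in each library. A gene was called when limma, fitted to log2 of the normalized count plus 1 over all 13986 genes tested, gave a Benjamini-Hochberg adjusted p under 0.05. By this rule 18 of the 40 (45%) were called, against 56.2% of all genes tested and 64.6% of the 8275 genes whose mean was at least that of the lowest member. Higher in the KO-labelled libraries were 6 members, where 28.2% of all genes were called higher, and 12 were lower, where 28.0% of all genes were called lower. The share of members called lay below that of genes at least as abundant as the lowest member, a set not otherwise matched for abundance. Differences between the groups were widespread in this transcriptome, and the difference in share was not tested.

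The sizes of the differences were small. Log2 changes (KO-labelled minus WT-labelled) ran from -0.33 for Rpa1 to 0.37 for Gins4, with a median of -0.02 and a median absolute value of 0.07, against 0.16 over all genes tested and 0.12 over genes at least as abundant as the lowest member. In 7 members the absolute change was at least 0.2, where 41.1% of all genes and 30.2% of the abundant ones reached that size, and in none did it reach 0.5, a size found in 14% and 5.75% of those genes. When the change itself was tested against a minimum of 1.1-fold, a test added after the data had been seen, 6 members (15%) were called by limma at an adjusted p under 0.05, against 27.0% of all genes. These were Gins4, Orc6 and Rrm2, higher, and Rpa1, Lig1 and E2f1, lower. The members had standard errors of 0.02 to 0.05 on the log2 scale, and the coefficient of variation between libraries of a group ranged from 0.24% to 6.93% with a median of 1.89%. For the 22 members not called, the 95% interval of the log2 change stayed within 0.19 of 0 in either direction, which is 1.14-fold at most and was reached by Ccne2 and Gins3. A p above the threshold does not show that their levels were equal.

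**Figure D1:**
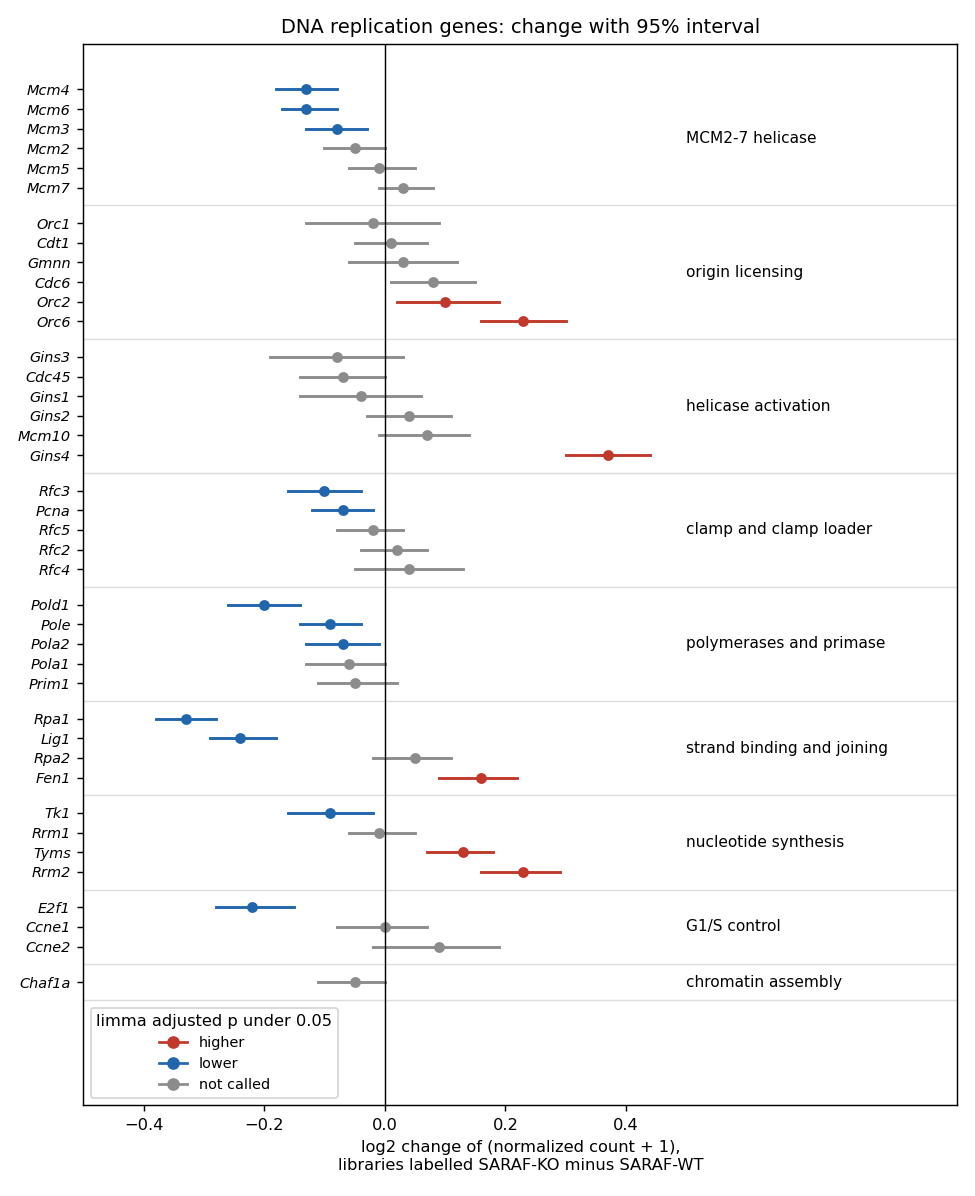
Log2 change of the normalized count plus 1 (x axis, KO-labelled minus WT-labelled libraries) for the 40 replication genes, grouped by role, with points for the limma estimate and lines for its 95% interval from 3 against 3 libraries. All points lie between -0.33 and 0.37, 6 are called higher (red), 12 lower (blue) and 22 are not called (grey).

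**Figure D2:**
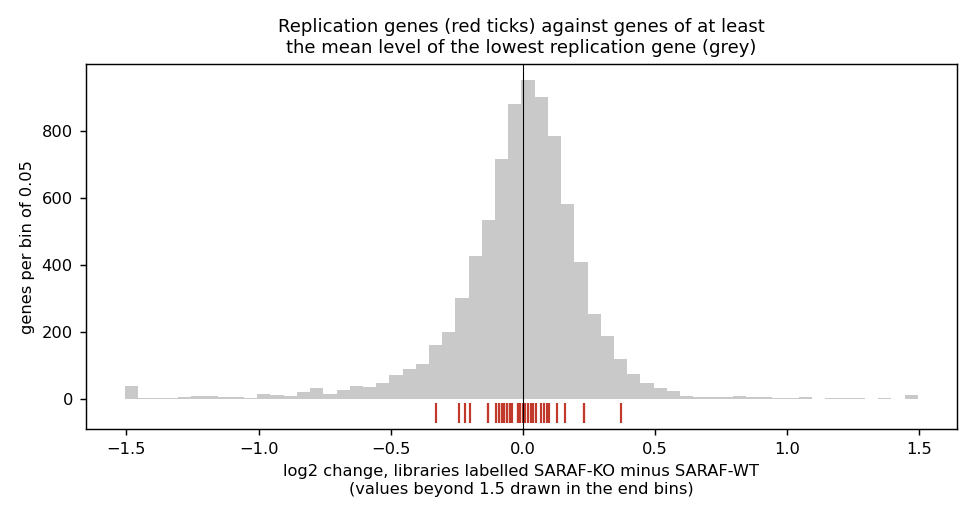
Histogram of log2 changes (x axis) for the genes whose mean normalized count was at least that of the lowest replication gene, in bins of 0.05 (y axis, number of genes), with red ticks for the 40 replication genes. The ticks fall within the central part of the histogram, between -0.33 and 0.37, and grey values beyond the axis are drawn in the end bins.

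Summed over the 40 genes, the normalized count was 177212, 179645 and 178132 in the KO-labelled libraries and 185792, 183972 and 184110 in the WT-labelled ones. As a share of reads this was 0.549%, 0.555% and 0.551% against 0.569%, 0.568% and 0.570%. The groups did not overlap in the sum, in which Mcm7, Rrm1, Mcm6 and Pcna had the highest counts. For single members, the libraries of the groups did not overlap in 24 of 40 genes (60%), against 61.4% of all genes tested, and 17 of the 18 called genes were among them.

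The MCM2-7 helicase was lower in some subunits and not called in others. Mcm4 had 9057, 9127 and 9156 normalized counts in the KO-labelled libraries and 9986, 9964 and 9938 in the WT-labelled ones. Mcm6 had 9919, 10150 and 9873 against 10809, 10825 and 11026, and in both genes every KO-labelled library lay below every other library. The log2 changes were -0.13 (SE, the standard error, 0.02, and limma adjusted p = 4.9e-05) for Mcm4 and -0.13 (SE 0.02, limma adjusted p = 8.9e-05) for Mcm6. Mcm3 fell by 0.08 (limma adjusted p = 0.0046), from a mean of 9392 ± 148 to 8857 ± 77.3 (SD, n = 3). Mcm2 had a log2 change of -0.05 (95% interval -0.10 to -0.00, limma adjusted p = 0.078, and 0.037 without SARAF-WT replicate 1), and Mcm5 and Mcm7 had changes of -0.01 and 0.03. The groups did not overlap in Mcm7, with the KO-labelled libraries above (limma adjusted p = 0.22), nor in Mcm2, with them below. Thus 3 of the 6 subunits were called lower and none higher, where 28.0% of all genes tested were called lower.

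Since the 6 subunits form one ring, their RNA was also set side by side per kb of the main transcript. Mcm7 had the highest level, with a mean of 5295 normalized counts per kb in the KO-labelled libraries and 5173 in the WT-labelled ones, and Mcm5 the lowest, with 2201 and 2213. Mcm2 and Mcm3, at 2916 and 2922 per kb under the KO label and 3021 and 3099 under the WT label, lay close together. Mcm7 made up 27.5%, 27.3% and 27.4% of the summed level per kb in the KO-labelled libraries and 26.1%, 25.7% and 25.7% in the others, whereas Mcm6 made up 17.8%, 17.9% and 17.6% against 18.5%, 18.8% and 18.8%. The order of the subunits from high to low was Mcm7, Mcm6, Mcm3, Mcm2, Mcm4 and Mcm5 by the group means of both groups, with Mcm2 and Mcm3 exchanging places between single KO-labelled libraries. Lengths come from GENCODE M21, and exons of Mcm7 share 13% of the transcript with Cops6 and Ap4m1 on the opposite strand, which this kit does not separate.

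**Figure D3:**
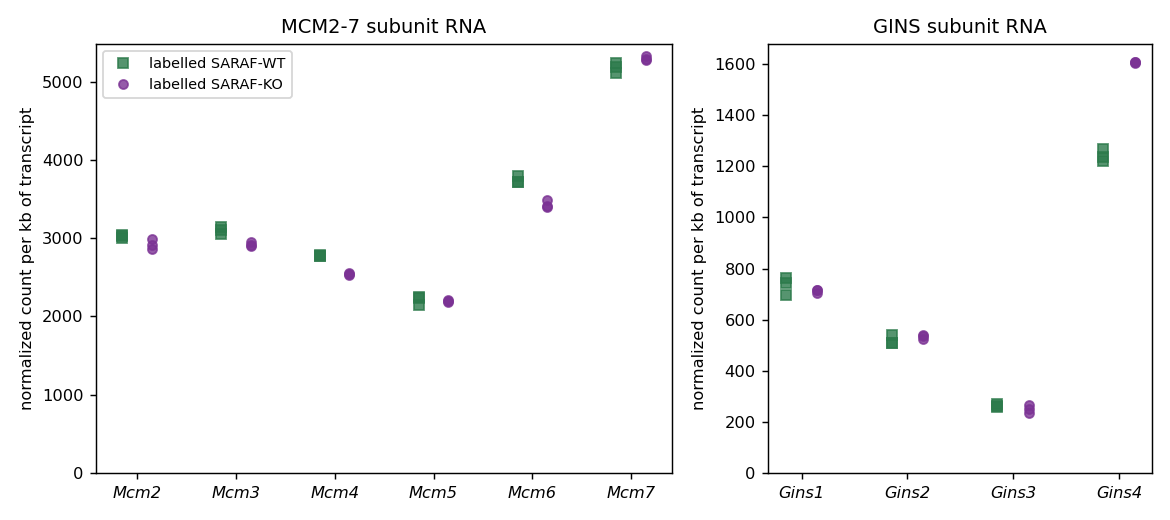
Normalized counts per kb of the main transcript (y axes, from 0) in each library for the subunits of MCM2-7 (left) and GINS (right), with green squares for WT-labelled libraries and purple circles for KO-labelled ones. Mcm7 stands above the other MCM subunits at 5295 and 5173 per kb in the mean, and Gins4 above the other GINS subunits at 1607 and 1241. These levels depend on the annotated lengths, 1349 bases for Gins4 and 3900 for Gins2.

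Among the origin licensing genes 2 of 6 (33.3%) were higher, near the 28.2% of all genes, and none lower, and the call of 1 of them, Orc2, was not stable. Orc6, the smallest subunit of the origin recognition complex, had 1927, 1894 and 1936 normalized counts in the KO-labelled libraries and 1678, 1636 and 1598 in the WT-labelled ones, with no overlap. Its log2 change was 0.23 (SE 0.03, limma adjusted p = 3.4e-06). Orc2, another subunit, had 1413, 1456 and 1472 against 1289, 1434 and 1320, so the groups overlapped, and its log2 change of 0.10 passed narrowly (limma adjusted p = 0.035). That call was lost with DESeq2 (0.12) and without SARAF-KO replicate 2 (0.1) or 3 (0.12) or SARAF-WT replicate 1 (0.14) or 3 (0.11), and 24% of its transcript is shared with exons of Nif3l1. Orc1, an ATPase subunit of the complex, had a mean of 674 ± 26.9 against 684 ± 36.7 (SD, n = 3) and was not called. The subunits Orc3, Orc4 and Orc5, listed apart from the members, had log2 changes of 0.19, 0.14 and 0.13. All were called higher without overlap (limma adjusted p = 6.9e-05, 0.0039 and 0.015).

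Cdc6, which works with the origin complex to load the helicase, had 2293, 2149 and 2142 normalized counts against 2087, 2063 and 2084. Although its groups did not overlap, the log2 change of 0.08 stayed just outside the threshold (limma adjusted p = 0.052), and it passed under 7 of the 18 alternatives, among them edgeR (0.043), whereas without SARAF-KO replicate 1 the log2 change was 0.05 (adjusted p = 0.31). Cdt1, the loading factor, and Gmnn, which encodes geminin, its inhibitor, had log2 changes of 0.01 (95% interval -0.05 to 0.07) and 0.03 (95% interval -0.06 to 0.12). Their normalized counts per group were 3109 ± 91.6 and 3085 ± 27.1 for Cdt1 and 1279 ± 88.6 and 1248 ± 15.4 for Gmnn (KO label first, SD, n = 3). For both sides of this switch the 95% interval stayed within 1.14-fold.

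Gins4 carried the largest difference of all members. GINS is a complex of 4 subunits that ties Cdc45 to the helicase, and Gins4 had 2168, 2173 and 2162 normalized counts in the KO-labelled libraries and 1648, 1667 and 1708 in the WT-labelled ones. The libraries of each group lay close together and far from the other group, for a log2 change of 0.37 (95% interval 0.30 to 0.44, limma adjusted p = 6.1e-10), or 1.29-fold. Its partners were not called: Gins1 had a log2 change of -0.04, Gins2 of 0.04 and Gins3 of -0.08, with limma adjusted p of 0.48, 0.37 and 0.22. Per kb, Gins4 made up 51.8% ± 0.22 of the GINS RNA under the KO label and 45% ± 0.71 under the WT label (SD, n = 3), and Gins1, whose own level was not called, 23% ± 0.24 and 26.6% ± 0.81. The level of Gins2 is uncertain, since 70.7% of its main transcript overlaps exons of Gse1. Before division by length, Gins4 and Gins2 had means of 2168 and 2078 under the KO label and 1674 and 2027 under the WT label. Their annotated lengths are 1349 and 3900 bases, so the shares per kb depend on the annotation. Cdc45 (-0.07, limma adjusted p = 0.098, and 0.044 without SARAF-KO replicate 2) and Mcm10 (0.07, limma adjusted p = 0.11, and 0.05 without SARAF-WT replicate 1), which help to start the helicase, were not called. So 1 of 6 genes of helicase activation was called, where 56.2% of all genes tested were.

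Gins4 and Orc6 are both on the chromosome that carries Saraf. Gins4 lies on chromosome 8 of GRCm38 from 23226616 to 23237659, 10.9 Mb from Saraf, and Orc6 lies further along it from 85299632 to 85308278. On this chromosome 45.2% of 715 tested genes were called higher in the KO-labelled libraries and 14.5% lower, with a median log2 change of 0.10. Chromosome 10 (44.6% higher, 17% lower, median 0.09) and chromosome 19 (39.3%, 16.5% and 0.08), which do not carry Saraf, had similar values. The other members on chromosome 8, Mcm5, Cdt1, Gins2 and Gins3, were not called, with log2 changes of -0.01, 0.01, 0.04 and -0.08. Whether the position has a part in the rise of Gins4 and Orc6 was not tested. Chromosome 14, on which 63.1% of tested genes were lower and the median log2 change was -0.27, holds none of the 40 genes.

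Of the sliding clamp and its loader 2 of 5 genes were lower, by small amounts, where 28.0% of all genes tested were lower. Pcna, whose protein encircles DNA and holds the polymerases, had 10128, 10245 and 10027 normalized counts in the KO-labelled libraries and 10593, 10803 and 10556 in the WT-labelled ones. These do not overlap, and the log2 change was -0.07 (SE 0.02, limma adjusted p = 0.013), lost without SARAF-KO replicate 3 (0.063). Pcna was the most abundant member per kb, at a mean of 6846 normalized counts per kb over the 6 libraries, which was 30.4 times the level of Orc1, the least abundant at 225. The median over the 40 genes was 1365. GENCODE lists the pseudogenes Pcna-ps1 and Pcna-ps2, whose reads may be shared with it. Of the RFC subunits, Rfc3 had 2782, 2770 and 2837 against 3003, 2973 and 3044 and was lower without overlap (log2 change -0.10, limma adjusted p = 0.0036). Rfc2, Rfc4 and Rfc5 had log2 changes of 0.02, 0.04 and -0.02, none called.

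All 5 polymerase and primase genes among the members had log2 changes below 0. Of these 3 were called lower, where 28.0% of all genes tested were lower. Pold1, the catalytic subunit of polymerase delta, had 4939, 4886 and 4734 normalized counts against 5726, 5404 and 5636, a log2 change of -0.20 (SE 0.03, limma adjusted p = 1.2e-06). Pole, the catalytic subunit of polymerase epsilon, had 6789, 7044 and 7143 against 7430, 7493 and 7411 (log2 change -0.09, limma adjusted p = 0.0042). In both genes the groups were apart, by a larger margin in Pold1. Pola2, a subunit of polymerase alpha, fell by 0.07 (limma adjusted p = 0.037), a call lost with DESeq2 (0.097), with scaling to total counts (0.051) and without SARAF-KO replicate 2 (0.1) or 3 (0.14) or SARAF-WT replicate 1 (0.08) or 3 (0.097). Pola1, its catalytic partner, had 3155, 3289 and 3156 against 3208, 3475 and 3350, and Prim1, the small primase subunit, 2156, 2216 and 2254 against 2262, 2288 and 2298. Neither passed, with log2 changes of -0.06 and -0.05 (limma adjusted p = 0.097 and 0.21), and Pola1 passed without SARAF-WT replicate 1 (0.01). Other subunits of these enzymes, listed apart from the 40, went both ways. Pold2 (log2 change 0.22, limma adjusted p = 3.0e-06) and Pole2 (0.14, 0.0089) were higher. Pold3 was lower (-0.27), and Pold4, Pole3, Pole4 and Prim2 were not called.

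Genes that bind, trim and join the new strands were called in both directions, 2 lower and 1 higher of 4. Over all genes tested 28.0% were lower and 28.2% higher. Rpa1, the large subunit of the single-strand binding protein RPA, had 7380, 7427 and 7576 normalized counts in the KO-labelled libraries and 9599, 9299 and 9205 in the WT-labelled ones, the largest fall among the members. Its log2 change was -0.33 (95% interval -0.38 to -0.28, limma adjusted p = 5.0e-11), or 0.80 times the level under the WT label. Rpa2, which encodes the middle subunit of the same complex, had 2054, 1966 and 2018 against 1947, 1976 and 1922, overlapping groups with a log2 change of 0.05 (95% interval -0.02 to 0.11). The 95% intervals of these partners do not overlap, and the difference between them was not tested. Rpa1 lies on chromosome 11 from 75298166 to 75348324, where the median log2 change of tested genes was -0.01.

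Lig1, the ligase that seals Okazaki fragments, was also lower, with 7563, 7342 and 7351 normalized counts against 8982, 8743 and 8521. The groups were well apart (log2 change -0.24, SE 0.03, limma adjusted p = 2.8e-08). Fen1, the flap nuclease that prepares the same ends for ligation, went the other way, with 2371, 2515 and 2402 against 2193, 2142 and 2205 (log2 change 0.16, SE 0.03, limma adjusted p = 0.00025). However, 83.9% of the main Fen1 transcript overlaps exons of Tmem258 and Gm10143 on the opposite strand, so this value cannot be assigned to Fen1 with certainty.

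Of 4 nucleotide supply genes 2 were higher and 1 lower, where 28.2% and 28.0% of all genes tested were. Rrm2, the S-phase subunit of ribonucleotide reductase, had 4427, 4668 and 4800 normalized counts against 3970, 4080 and 3820, so all KO-labelled libraries were above the others (log2 change 0.23, SE 0.03, limma adjusted p = 1.4e-06). Rrm1, the large subunit of the enzyme, had 11978, 12220 and 12155 against 12475, 12157 and 11872, overlapping groups and a log2 change of -0.01 (95% interval -0.06 to 0.05). Rrm2 accordingly made up 41% ± 0.8 of the RNA of both subunits per kb under the KO label and 37.2% ± 0.66 under the WT label (SD, n = 3). Tyms, thymidylate synthase, had 4514, 4615 and 4452 against 4211, 4215 and 4022 (log2 change 0.13, limma adjusted p = 0.00053), and it has a listed pseudogene, Tyms-ps. Tk1, the thymidine kinase of the salvage route, fell by 0.09 on the log2 scale (limma adjusted p = 0.03), a call lost with DESeq2 (0.082) and without SARAF-KO replicate 3 (log2 change -0.04, adjusted p = 0.29) or SARAF-WT replicate 1 (0.062) or 3 (0.066).

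E2f1 was the only called gene of the 3 that govern entry into S phase, where 56.2% of all genes tested were called. The transcription factor E2f1 had 2770, 2860 and 2934 normalized counts in the KO-labelled libraries and 3388, 3237 and 3327 in the WT-labelled ones, without overlap. The log2 change was -0.22 (95% interval -0.28 to -0.15, limma adjusted p = 1.7e-06). Ccne1 and Ccne2 encode E-type cyclins, partners of Cdk2, and had log2 changes of -0.00 (95% interval -0.08 to 0.07) and 0.09 (95% interval -0.02 to 0.19), with Ccne2 passing without SARAF-KO replicate 2 (limma adjusted p = 0.045). Chaf1a, a subunit of the chromatin assembly factor that places histones behind the fork, had 4846, 4781 and 4809 against 5073, 5022 and 4876. These did not overlap, but the log2 change of -0.05 was not called (limma adjusted p = 0.098), and 48.6% of its transcript overlaps Ubxn6. Of the 11 genes with an E2F word in their window 4 were lower, none higher and 7 not called (median log2 change -0.06). Of the 21 without one in their window 6 were lower, 5 higher and 10 not called (median -0.02). Over all genes tested 28.0% were lower and 28.2% higher.

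**Figure D4:**
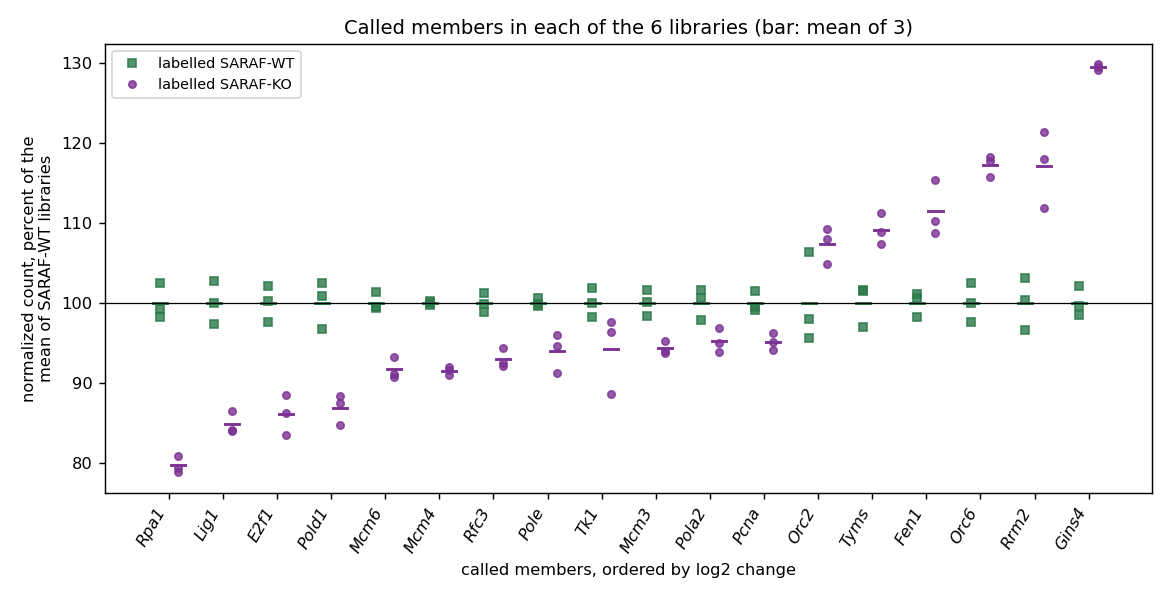
Normalized count of the 18 called genes in each library as a percent of the mean of the WT-labelled libraries (y axis), ordered by log2 change, with green squares for SARAF-WT labels, purple circles for SARAF-KO labels and bars for the mean of 3 libraries. In 17 of the 18 genes the groups do not overlap, the exception being Orc2, but these genes were called from the same libraries. Whether called or not, 24 of the 40 members (60%) had groups without overlap, against 61.4% of all genes tested.

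Further genes of replication, listed apart from the 40, gave a share of calls near that of all genes. Of 43 such genes all were tested, 14 were higher, 9 lower and 20 not called, which is 53.5% called against 56.2% of all genes tested, with a median log2 change of -0.01, and without SARAF-KO replicate 2 the number higher was 8. Wdhd1, which links the helicase to polymerase alpha, had 1340, 1434 and 1374 normalized counts against 1877, 1947 and 1791, a log2 change of -0.44 (limma adjusted p = 7.3e-10). Rnaseh2b, a subunit of the nuclease that removes ribonucleotides from DNA, fell by 0.41 (limma adjusted p = 1.3e-08) and Pold3, an accessory subunit of polymerase delta, by 0.27 (2.8e-07). Dctd, which deaminates dCMP on the way to thymidylate, rose by 0.41 (limma adjusted p = 3.4e-07). Wdhd1 and Rnaseh2b lie on chromosome 14, and Dctd on chromosome 8.

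Regulators upstream of S phase included some larger values than the members. Of 24 G1/S regulators 13 were higher, 3 lower and 8 not called (66.7% called, median log2 change 0.11). Over all genes tested 28.2% were higher, 28.0% lower and 56.2% called. Among genes at least as abundant as the lowest member 64.6% were called. The median absolute log2 change of the G1/S regulators was 0.14, against 0.16 over all genes tested. Ccnd2, a D-type cyclin that starts the passage through G1, had 3285, 3345 and 3368 normalized counts in the KO-labelled libraries and 1710, 1735 and 1756 in the WT-labelled ones, a log2 change of 0.94 (limma adjusted p = 2.1e-18). Ccnd1, Myc and Tfdp1, which encode another D-type cyclin, a growth regulator and the partner of E2F factors, rose by 0.75, 0.45 and 0.44. All 7 inhibitors of cyclin-dependent kinases were called, 4 higher and 3 lower (median 0.18). Cdkn1a, which encodes the inhibitor p21, had 4801, 4586 and 4538 against 2341, 2209 and 2452, a log2 change of 0.99 (limma adjusted p = 8.1e-18). Cdkn2b, an inhibitor of Cdk4 and Cdk6, rose by 0.36, whereas Cdkn1c and Cdkn2c fell by 0.55 and 0.39. Thus RNA of both activators and inhibitors of G1 progression rose in the same libraries.

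Among genes of G2 and mitosis changes were again small. Of 20 listed, 4 were higher, 6 lower and 10 not called, which is 50% called against 56.2% of all genes tested, with a median log2 change of -0.01 and values from -0.16 to 0.26. Mki67, which encodes the proliferation antigen Ki67, had 14062, 13671 and 14148 normalized counts in the KO-labelled libraries and 15885, 15239 and 15153 in the WT-labelled ones (log2 change -0.14, limma adjusted p = 2.8e-05). Its groups did not overlap and Cenpe, a mitotic motor protein, fell by 0.16, but Cdk1, the kinase of mitotic entry, and Foxm1, a transcription factor of G2, rose by 0.26 and 0.17.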

How the data were processed

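RNA of MEFs was sequenced in 6 TruSeq libraries. Per the labels and the study's methods, the authors mapped reads to GRCm38 with TopHat2 2.0.10, tallied genes with HTSeq (Ensembl release 82) and scaled each library by its DESeq2 size factor (the DESeq2 version was not stated). The deposited values are therefore signal values, normalized counts per gene and library. Columns of the deposited table with the authors' own mean and comparison (log2 fold change, error, test statistic, raw and adjusted p) were not used. Within a tolerance of 1e-06 every value (100%) was a whole number of steps, 1 step being 1 read, which gave back the reads. Depth, 24595137 to 37979662 reads per library, limits the precision of genes with few reads.

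The members and gene lists were chosen with earlier results of these data known. Groups were compared with limma 3.58.1 in R 4.3.3, with a variance trend, on log2(normalized count + 1). Genes averaging 10 or more were tested, and adjusted p (Benjamini-Hochberg) under 0.05 was called. This scale slightly understates changes of low genes. Alternatives were edgeR 4.0.16, DESeq2 1.42.0 and limma-voom on recovered reads (edgeR called 7926 genes), other scalings, filters and pseudocounts (0.5 and 5), a replicate block and leaving out each library. The scripts were tested on simulated data in which only a small part of the genes differed. That test therefore does not speak to data with differences as widespread as here. Values in every library are given for the 14 called members with the largest change, the largest of each role group, the uncalled members of mostly called groups, Saraf, Mki67 and Cdkn1a, and up to 4 genes of each other list were named by smallest p. Pcna, Cdc6, Wdhd1 and Ccnd2 were shown in every library, and the genes on chromosome 8 singled out, after their values were seen. Further subunits of the polymerases and of the origin recognition complex were also named after their values were seen. Positions and lengths of the main transcript come from GENCODE M21 on GRCm38, which lists 96% of the table's symbols.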

Additional observations from a re-analysis of the deposited data

How the results depend on the processing

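Of 720 member values under 18 alternatives, 668 kept their direction and their side of the threshold, 28 lost and 12 gained the call, and 12 changed sign in genes that were never called. The member counts of 6 higher and 12 lower moved by over 1.5 times only when the change was tested against 1.1-fold, an alternative chosen after seeing the data, to 3 and 3. In the same test the counts fell to 2 higher and 5 lower for other replication genes, 7 and 1 for G1/S regulators, 1 and 0 for G2/M genes and 3783 for all genes. Without single libraries the members higher numbered 5 to 6 and those lower 9 to 12, the other replication genes higher 8 to 14, and all genes called 6958 to 7899. Without single libraries the log2 changes ranged from -0.03 to 0.01 for Mcm5, -0.06 to 0.02 for Orc1, -0.01 to 0.03 for Cdt1, -0.02 to 0.07 for Gmnn, -0.02 to 0.01 for Rrm1 and -0.02 to 0.02 for Ccne1, which also changed sign with scaling to total counts (0.0023). The cause was not tested. The median log2 change of all genes was -0.001 as deposited, 0.001 with TMM and 0.003 with scaling to total counts. Same-numbered libraries did not deviate together (r of -0.001, 0.002 and -0.001 for the pairs), so the number was not taken as a pairing, and with the replicate block 6 members were higher and 12 lower, and 7801 genes were called. Reads per member and library, 496 or more, did not limit detection, whereas 3 libraries per group limit how well small changes are told apart.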
